A study of Mus musculus with 93 samples.

Results

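Alveoli are lined by a pair of epithelial cell types. Type 2 cells are cuboidal, make pulmonary surfactant, store it in lamellar bodies and can renew the epithelium, while type 1 cells are thin and flat, cover most of the gas exchange surface and share a basement membrane with the capillaries. Surfactant is mostly phospholipid with the proteins encoded by Sftpa1, Sftpb, Sftpc and Sftpd, and type 1 cells are known for the receptor Ager, the water channel Aqp5, the membrane glycoprotein Pdpn and for many caveolae. The comparison described here is of type 2-like with type 1-like cells within the Tbx4 lineage- sort of adult mouse lung.

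The series holds 93 single-cell RNA-seq libraries from the lungs of adult C57BL/6 mice of the genotype Tbx4cre;RosaTm, in which Cre expressed from Tbx4, a gene of the lung mesenchyme, switches on a heritable reporter, and 39 of the libraries are from lineage- cells. All animals carried the same alleles, and no treatment is named. The sorting protocol gives the gate as epcam+, CD31-, CD45- and 7AAD-, whereas the design text calls the cells mesenchymal. Each library is 1 cell caught on a Fluidigm C1 chip, and since no label names an animal or a chip for it, all lineage- cells count as 1 sample. Both classes come from that sample, so cells are not replicates of a condition, no p-value was made, and every difference below describes these cells only.

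Members were chosen by their own expression values. The 34 lineage- cells in which 1000 genes or more reached 1 FPKM (fragments per kilobase of transcript, scaled to the library's reads) were kept, and a kept cell was set aside as myeloid where Laptm5 and Tyrobp were both at 1 FPKM or more. A cell was called type 2-like with at least 4 of Sftpb, Sftpa1, Sftpd, Lamp3, Slc34a2, Napsa, Abca3, Cxcl15 and Etv5 and fewer than 4 of the type 1 markers at 1 FPKM, and type 1-like in the reverse case. The type 1 markers were Ager, Hopx, Aqp5, Rtkn2, Cldn18, Akap5, Pdpn, Cav1, Igfbp2 and Clic5, of which Hopx, Cldn18 and Cav1 had rows without values, leaving 7 of 10. The rule gave 14 members of 39 lineage- cells. They were 8 type 2-like cells, 23.5% of the 34 kept (exact Clopper-Pearson 95% interval 10.7 to 41.2%, counting error only), and 6 type 1-like cells, 17.6% (6.76 to 34.5%). Another 4 cells had at least 4 markers of both sets and are called mixed, 10 were myeloid, 6 had neither set and 5 had under 1000 genes.

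**Figure D1:**
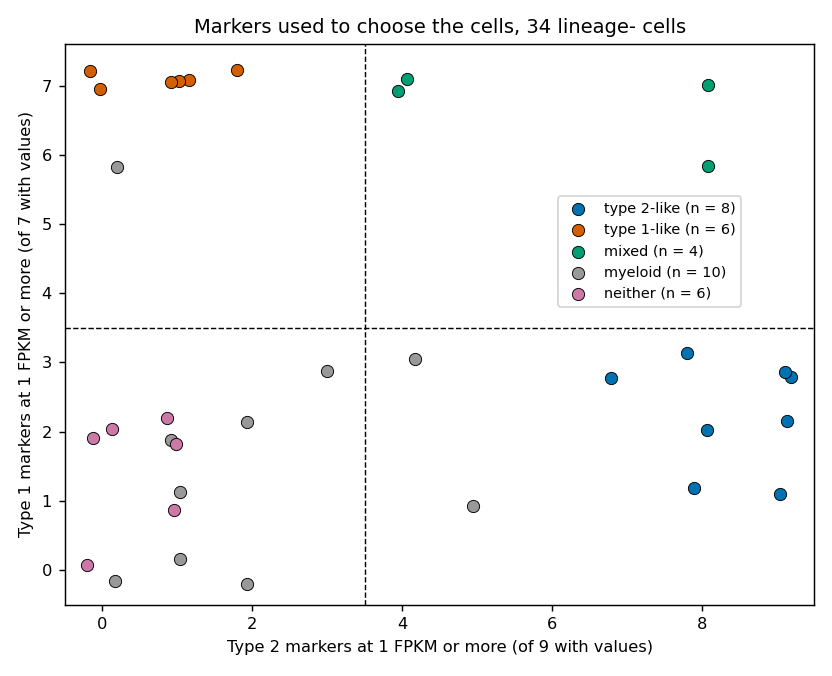
Number of type 2 markers (x axis, of 9) and type 1 markers (y axis, of 7) at 1 FPKM or more in each of the 34 kept lineage- cells, 1 point per cell, shifted slightly so that points do not hide each other; dashed lines mark the limit of 4 markers. The 8 type 2-like cells had 7 to 9 type 2 markers and the 6 type 1-like cells had 7 type 1 markers each, while the 4 mixed cells passed both limits.

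The markers of the rule are given as a description only. Sftpa1, an opsonin of surfactant, ranged from 634 to 5427 FPKM in type 2-like cells (median 4067) and was at most 0.178 FPKM in type 1-like cells. Lamp3, a protein of the lamellar body membrane, and Sftpb, which is needed for lamellar bodies to form, were at 1 FPKM or more in 8 of 8 type 2-like cells. Napsa, a protease that processes surfactant proteins, was too, and it also stood at 396 FPKM in type 1-like cell 2. Ager lay between 9285 and 23667 FPKM in type 1-like cells (median 13408), and every type 2-like cell also had it, at 14.8 to 2882 FPKM. Aqp5 was at 191 FPKM or more in 6 of 6 type 1-like cells and at 1561 FPKM in type 2-like cell 34. Abca3, the lipid transporter of lamellar bodies, went least with the class names: it was at 1 FPKM or more in only 5 of 8 type 2-like cells and also in type 1-like cells 16, 28 and 31 (90.1, 4.83 and 61.3 FPKM). Epcam, the adhesion molecule of the gate, was detected in 4 type 2-like and 2 type 1-like cells.

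At the limits of the rule, cell 23 had the fewest type 2 markers of its class (7), and type 2-like cells 17, 23, 34 and 38 had 3 type 1 markers each. Some members had 1 of the 2 myeloid genes of the rule. Type 1-like cell 2 had Tyrobp at 448 FPKM with Laptm5 listed at 0. Type 2-like cells 17 and 34, which had few reads, had Laptm5 at 4.84 and 5.07 FPKM with Tyrobp listed at 0. At their estimated depth such a value can stand for a single read. Just outside the rule, mixed cells 13 and 35 had 4 type 2 markers beside all 7 type 1 markers. Cell 33, with 752 genes and Tyrobp at 5738 FPKM, lay below the limit of 1000 genes that cell 34 passed with 1027.

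Several members stood apart in depth or in markers of other cells. Depth, estimated from the spacing of low values, was 7120000 to 11500000 reads in type 1-like cells and 6620000 to 13600000 in 6 type 2-like cells, but 179000 and 187000 in type 2-like cells 34 and 17. In cells 34 and 17 a single read can put a gene at 1 FPKM or more, so detection is an easier limit there than in the other members. Counts of detected genes and markers that include these cells hold such values. Type 2-like cells had 1027 to 2206 genes at 1 FPKM or more (median 1534) and type 1-like cells 1393 to 2827 (median 1786). Type 2-like cell 1 had 8 of 10 fibroblast markers at 1 FPKM or more, summing to 8109 FPKM and led by Inmt (4099 FPKM) and Mgp (3010 FPKM), against 105 and 168 FPKM in cells 34 and 17 and under 3 FPKM in the other 11 members. Type 1-like cell 2 had 7 of 12 immune markers, summing to 2164 FPKM with Cd52, Cd37 and the B cell receptor component Cd79a among them, against at most 136 FPKM in any other member. Type 2-like cell 23, whose well name contains the word debris, carried the club cell enzyme Cyp2f2 at 18467 FPKM and Dynlrb2, on the ciliated list, at 1723 FPKM. The part these cells' other markers play in the results was not tested. The housekeeping gene Gapdh was listed at exactly 0 in 2 of the 14 members, cell 7 and the shallow cell 17, so a listed 0 need not mean absence. Whether such zeros are failed estimates or missed transcripts was not tested.

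Of the 4062 genes that were detected (1 FPKM or more) in 25% or more of a class, with the genes of the rule left out, 277 were higher in type 2-like cells (6.82%) and 724 in type 1-like cells (17.8%). Higher here means a difference of at least 2 between the mean log2(FPKM + 1) of the classes, always type 2-like minus type 1-like, so that negative differences are higher in type 1-like cells. The median difference over all genes tested was -0.39. Of the calls 27.7% were higher in type 2-like cells, and this share moved with single cells, shallow and deep: it was 33.2% without cell 17, 33.6% without cell 34 and 33.6% without the deep type 1-like cell 2. Without cells 17 and 34 together the counts were 437 and 650 (40.2%), and without cells 1, 2 and 23 they were 355 and 741. A gene detected in 1 class alone passes the limit through the class where it is high, so the counts and medians of lists below describe the genes that passed and no more. With no detection limit the median was 1.32 for host defence genes, -2.15 for basement membrane, -0.0061 for ion transport and -0.011 for growth factor signalling. The cells of the classes did not overlap for 12 genes higher in type 2-like cells (0.295%) and 42 higher in type 1-like cells (1.03%).

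**Figure D2:**
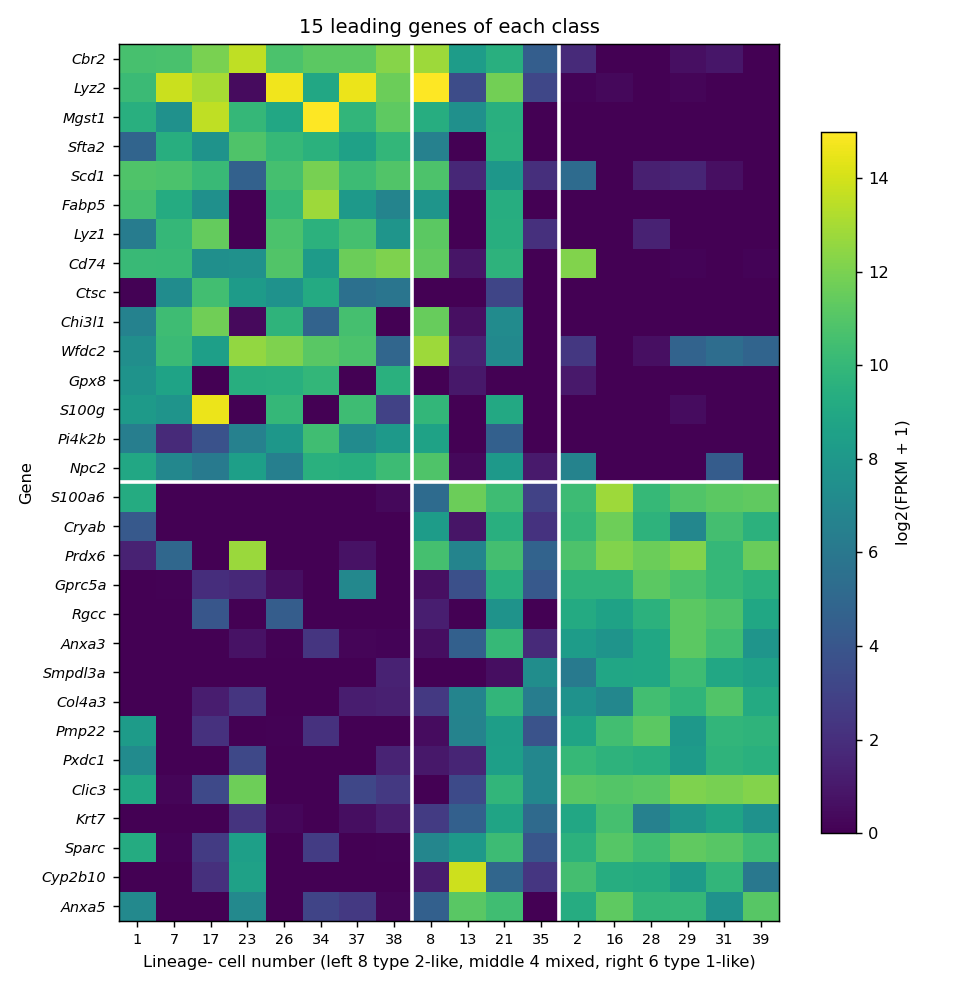
Level of the 15 genes with the largest difference in each direction (rows) in each type 2-like, mixed and type 1-like cell (columns, by cell number), as log2(FPKM + 1) from 0 (dark) to 15 or more (yellow); white lines part the classes and the gene groups. All 6 type 1-like cells had every lower gene at 62.7 FPKM or more, while type 2-like cells 1 and 23 had several of them, and cell 2 was the type 1-like cell with high Cd74.

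Upstream sequences were taken for the first 2 leading genes of each class whose cells did not overlap and that had a single entry in RefSeq's promoter table (GRCm38.p6): 250 bases before the start, 5′ to 3′ on the gene's strand. They are shown as examples of genes that differed without overlap (Cryab and Gprc5a, with larger differences than Rgcc, are not shown), and they were searched on both strands for CACTTG (reverse CAAGTG), a core that NKX2-1, the factor of lung epithelium, is known to bind, and for GGAATG (reverse CATTCC), a core of the TEAD partners of YAP. Capitals mark the matches.
Cbr2, chr11:120732022-120732271, minus strand: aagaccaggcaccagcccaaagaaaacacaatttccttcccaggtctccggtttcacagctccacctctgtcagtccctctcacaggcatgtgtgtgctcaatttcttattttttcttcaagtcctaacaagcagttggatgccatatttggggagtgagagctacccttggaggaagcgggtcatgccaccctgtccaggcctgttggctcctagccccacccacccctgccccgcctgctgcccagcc
Lyz2, chr10:117282273-117282522, minus strand: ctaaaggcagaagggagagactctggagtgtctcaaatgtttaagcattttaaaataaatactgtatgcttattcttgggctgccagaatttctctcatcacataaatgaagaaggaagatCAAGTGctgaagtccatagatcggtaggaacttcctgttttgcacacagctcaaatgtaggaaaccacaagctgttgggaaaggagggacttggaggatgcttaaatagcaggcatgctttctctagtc
S100a6, chr3:90612644-90612893, plus strand: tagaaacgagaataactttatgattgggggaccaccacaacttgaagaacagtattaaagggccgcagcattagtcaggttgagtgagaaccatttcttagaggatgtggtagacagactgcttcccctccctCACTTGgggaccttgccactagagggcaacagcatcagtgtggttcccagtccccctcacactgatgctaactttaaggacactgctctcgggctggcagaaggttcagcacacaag
Rgcc, chr14:79301636-79301885, minus strand: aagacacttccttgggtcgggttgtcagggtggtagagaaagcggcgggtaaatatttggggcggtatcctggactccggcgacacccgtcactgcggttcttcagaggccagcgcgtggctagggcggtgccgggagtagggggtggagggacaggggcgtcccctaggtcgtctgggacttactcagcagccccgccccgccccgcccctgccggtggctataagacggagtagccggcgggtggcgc

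Lyz2 holds the first motif 129 bases before its start, as CAAGTG, and S100a6 holds it 117 bases before its start, as CACTTG, while Cbr2 and Rgcc hold neither. Among leading genes found in the table, 4 of 11 on the type 2-like side and 3 of 9 on the type 1-like side hold CACTTG or its reverse, against 13.2% of all 27025 genes. GGAATG or its reverse is in 4 of 11 and 2 of 9, against 14.4%. A match is a description of the letters, not a bound site.

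The 15 genes with the largest differences towards type 2-like cells ran from Cbr2 (10.98) to Npc2 (6.43) and included lysozymes, lipid enzymes, antigen presentation and lysosomal genes. Cbr2 (chromosome 11, 120729485 to 120732021, GRCm38), a carbonyl reductase of the lung, lay between 1563 and 11984 FPKM in type 2-like cells (median 2367), with the highest value in cell 23. In type 1-like cells it was at 0 to 2.50 FPKM (median 0.280), and the classes did not overlap. Mgst1 (chromosome 6, 138140537 to 138156752), a glutathione transferase of membranes, ranged from 192 to 33637 FPKM (median 958), highest in the shallow cells 34 and 17, and was listed at 0 in all 6 type 1-like cells. Sfta2 (chromosome 17, 35649708 to 35650569), which encodes a secreted surfactant-associated protein, ranged from 28.1 to 1846 FPKM (median 719) and was likewise listed at 0 in every type 1-like cell. Pi4k2b, a phosphatidylinositol kinase, was at 2.51 to 1363 FPKM (median 124) in type 2-like cells and listed at 0 in all type 1-like cells. A difference against a class listed at 0 is set by the 1 FPKM added to each value, so none is given for such genes. They do enter the counts and list medians, which share that dependence. Differences given below for genes with mere traces in the lower class, such as Hc, Idi1, Fasn, Ehf, Tgfb2 and Ifit3, share it too. Over all alternatives Fasn ranged from 1.73 to 6.79 and Tgfb2 from -6.40 to -1.37.

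Host defence genes that passed were all on the type 2-like side. These 7 members that passed the detection limit, of 14 with values, were higher in type 2-like cells, against 6.82% of all genes tested. Their median difference was 6.69, against -0.39 over all genes tested. However, C3, Chi3l1, Lcn2 and Lyz2 were detected in no type 1-like cell and Lyz1 in 1 of 6. These genes passed through type 2-like cells alone, and with no detection limit the median was 1.32. The 7 members were Lyz1, Lyz2, Lcn2, Chi3l1, Wfdc2, C3 and Hp, and 5 others were listed at 0 in all members. Lyz2 (chromosome 10, 117277541 to 117282272), a lysozyme of type 2 and myeloid cells, had a median of 5850 FPKM in type 2-like cells and reached 26126 FPKM, but stood at 0.353 FPKM in cell 23. Type 1-like cells had at most 0.254 FPKM, so the classes parted (difference 10.81), in cell 23 by a margin too small to read. Lyz1, its close paralog, with which it may share reads, had a median of 909 FPKM and was listed at 0 in cell 23 (difference 8.08). Lyz2 was also detected in 10 of 10 myeloid lineage- cells, at a median of 2965 FPKM, and in 0 of 50 lineage+ cells. Wfdc2, a secreted antiprotease, was at 29.3 to 6068 FPKM (median 1465) in type 2-like and at 0 to 39.8 FPKM (median 15.7) in type 1-like cells, which overlapped (6.69). Chi3l1, a chitinase-like lectin, had a median of 477 FPKM in type 2-like cells and was listed at 0 in cell 38 and in every type 1-like cell.

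Surfactant and lamellar body genes outside the rule were mostly higher in type 2-like cells. Of 18 with values, 17 passed, 11 were higher in type 2-like and 1, the cholesterol exporter Abca1, in type 1-like cells (-3.77), with a median of 2.86. Over all genes tested 6.82% were higher in type 2-like and 17.8% in type 1-like cells. Sftpc (chromosome 14, 70520942 to 70524081), the surfactant protein most specific to type 2 cells, was listed unevenly within the class. It stood at 512389, 368330, 128844 and 44386 FPKM in cells 34, 17, 1 and 23, and was listed at 0 in cells 7, 26, 37 and 38, all of which had Sftpa1 at 1699 FPKM or more. Type 1-like cells held 0 to 3243 FPKM (median 2.22), so the classes overlapped (5.39), and without cells 17 and 34 the difference was 2.06. Sftpc was also at 1 FPKM or more in 7 of 10 myeloid and 6 of 6 cells with neither marker set. No cell of those classes was listed at 0 (lowest 0.274 and 1.82 FPKM), while cells 7, 26, 37 and 38 had an estimated 7980000 to 13600000 reads. Whether their zeros reflect expression or the listed values was not tested. Dram1, a lysosomal membrane protein of autophagy, was at 2.71 to 409 FPKM (median 182) in type 2-like cells and at most 0.264 FPKM in type 1-like cells, without overlap (6.18). Hc, complement component C5, had a median of 115 FPKM and was listed at 0 in cell 23 alone of the type 2-like cells (6.37). S100g, a calcium-binding protein, ranged from 0 to 24154 FPKM (median 252) in type 2-like cells, highest in cell 17, and reached at most 0.412 FPKM in type 1-like cells (6.64). The other higher members were Lpcat1, Ctsh, Lgi3, Muc1, Lamp2, Egfl6 and Bex2.

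Lipid and cholesterol synthesis leaned the same way with exceptions. Of 17 lipid synthesis genes that passed (21 with values), 8 were higher in type 2-like cells and 2 in type 1-like cells (median 1.56). Of 8 cholesterol synthesis genes (15 with values), 5 were higher in type 2-like and 1, Fdft1, in type 1-like cells (median 2.34). The shares over all genes tested were 6.82% and 17.8%. Fdft1, at -2.06, was just past the limit and fell short of it in 9 of 14 comparisons with 1 cell left out, where it ranged from -2.75 to -0.86. Scd1 (chromosome 19, 44394450 to 44407709), which desaturates stearate, was at 1157 FPKM or more in 7 of 8 type 2-like cells and at 23.8 FPKM in cell 23. Type 1-like cell 2 had 36.8 FPKM and the other 5 at most 1.93 FPKM (difference 8.58). Its paralog Scd2 went the other way, at 114 to 1240 FPKM (median 329) in type 1-like against 0 to 152 FPKM (median 72.8) in type 2-like cells (-3.85), with overlap. Fabp5, a fatty acid carrier, had a median of 439 FPKM in type 2-like cells and was listed at 0 in cell 23 and in every type 1-like cell. Fasn, the fatty acid synthase, was detected in 7 of 8 type 2-like cells (median 26.9 FPKM) and in 0 of 6 type 1-like cells (4.04). Idi1, an isomerase of the isoprenoid pathway, ranged from 0 to 1738 FPKM (median 7.31) in type 2-like cells (4.05). Acly, Acsl4, Acoxl and Insig1 were among the other higher lipid genes, and Hmgcs1, Fdps and Sc4mol among the higher cholesterol genes.

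Antigen presentation by MHC class II was high in type 2-like cells and in a single type 1-like cell. Cd74, the invariant chain, was at 177 to 4432 FPKM (median 1124) in type 2-like cells, at 4491 FPKM in type 1-like cell 2 and at most 0.116 FPKM in the other 5 type 1-like cells. H2-Aa followed the same pattern, with a median of 897 FPKM in type 2-like cells, 1574 FPKM in cell 2 and at most 0.322 FPKM in the others, and so did H2-Ab1, with 179, 2391 and at most 0.281 FPKM. Of the 7 genes in the list, 3 were higher in type 2-like cells and 0 in type 1-like cells (median 1.74). Among all genes tested 6.82% and 17.8% were. Differences were 7.70 for Cd74, 6.41 for H2-Aa and 4.53 for H2-Ab1. Without cell 2, the cell with immune markers, they were 9.71, 8.16 and 6.38. As a ratio of mean FPKM, to which cell 2 adds most of the type 1-like mean, H2-Ab1 turned to -0.42. Type 2-like cell 23 had Cd74 at 188 FPKM but H2-Aa at 0. Class I and interferon genes went both ways (11 passed, 2 higher in type 2-like, 4 in type 1-like, median -0.18): B2m, the class I light chain, was higher in type 1-like cells (median 1303 against 251 FPKM, -2.82), and the interferon-induced Ifit3 was at 17.6 FPKM or more in 4 of 6 type 1-like cells and at most 0.0243 FPKM in type 2-like cells (-5.01).

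Among lysosomal genes 3 were higher in each class of 10 that passed (median 0.81). Of all genes tested, 6.82% were higher in type 2-like and 17.8% in type 1-like cells. Ctsc, a dipeptidyl peptidase, had a median of 177 FPKM in type 2-like cells, with 0.0768 FPKM in cell 1, and was listed at 0 in all type 1-like cells. Npc2, a cholesterol-binding protein also found in surfactant, was at 69.5 to 1249 FPKM (median 425) in type 2-like cells and at 102 and 19.4 FPKM in type 1-like cells 2 and 31, the only ones to detect it (6.43). Ctsb was higher in type 2-like cells (2.68) and Ctsd, Lgmn and Grn in type 1-like cells. Ctsd, at -2.06, fell short of the limit in 8 of 14 comparisons with 1 cell left out, where it ranged from -2.84 to -1.42.

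The 15 genes with the largest differences towards type 1-like cells ran from S100a6 (-9.92) to Anxa5 (-7.39), and all 15 were detected in 6 of 6 type 1-like cells. For 11 of them the classes did not overlap, against 6 of 15 on the type 2-like side. Over all genes tested this held for 42 genes higher in type 1-like cells (1.03%) and 12 higher in type 2-like cells (0.295%). Leading genes were picked by their differences in these same cells, which raises the share without overlap. S100a6 (chromosome 3, 90612894 to 90614414), a calcium-binding protein, was at 1047 to 7281 FPKM (median 2174) in type 1-like cells. Type 2-like cell 1, the cell with fibroblast markers, had 590 FPKM and the other 7 at most 0.241 FPKM, 6 of them listed at 0. S100a6 was also detected in 45 of 50 lineage+ cells. Cryab, a small heat shock protein of the lens and muscle, was at 122 to 3294 FPKM (median 914), and of the type 2-like cells cell 1 alone detected it, at 17.6 FPKM (-9.21). Gprc5a, an orphan receptor of lung epithelium, was at 761 to 2391 FPKM (median 952) in type 1-like and at most 127 FPKM in type 2-like cells, that maximum in cell 37 (-8.76). Rgcc, a regulator of the cell cycle, was at 407 to 2382 FPKM (median 683), against at most 20.2 FPKM (-8.69), and the phospholipid-binding annexin Anxa3 at 220 to 2423 FPKM (median 396), against at most 3.99 FPKM (-8.64). Prdx6, a peroxiredoxin with phospholipase activity, was at 1017 to 4517 FPKM (median 3131) in type 1-like cells. It overlapped because cell 23 had 6926 FPKM, while the other type 2-like cells had at most 31.4 FPKM (-8.88). Smpdl3a, a phosphodiesterase, was at 68.3 FPKM or more in type 1-like and at most 1.73 FPKM in type 2-like cells (-8.45).

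Genes linked to type 1 cells outside the rule were higher as a block in type 1-like cells: 19 of 19 that passed, of 20 with values, were higher in type 1-like cells, with a median of -6.06. Over all genes tested 17.8% were higher in type 1-like cells. The list was drawn up from known type 1 genes with earlier results of these data known, so its direction is no independent support. It shares Ptrf, Krt7 and Scnn1g with the caveolar, keratin and ion transport lists below, so these genes are counted again there. Emp2, a membrane protein, was at 345 to 1754 FPKM (median 771) in type 1-like and 0.0956 to 112 FPKM (median 9.39) in type 2-like cells (-6.42). Pxdc1 was at 306 to 1042 FPKM (median 781) against at most 151 FPKM, again in cell 1 (-7.95). Icam1, an adhesion molecule for leukocytes, was at 41.4 to 944 FPKM (median 313) against at most 16.4 FPKM (-6.24). Cyp2b10, a cytochrome P450 with close paralogs that may share its reads, was at 62.7 to 1452 FPKM (median 616) and overlapped only through cell 23 (389 FPKM, -7.53). Spock2, Sema3e, Timp3, Lmo7, Ahnak, Ndnf, Tspan8, Fam189a2 and Myrf were among the others.

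**Figure D3:**
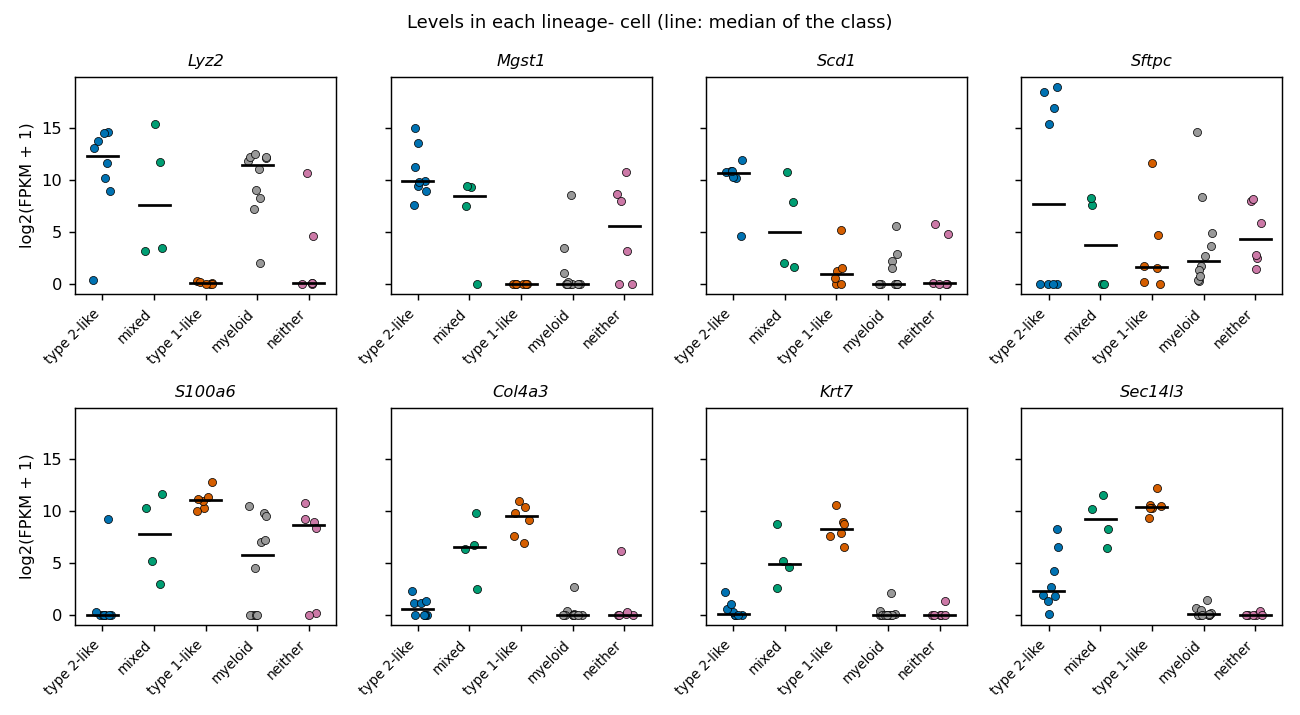
Levels of 8 named genes, as log2(FPKM + 1), in every kept lineage- cell by class, 1 point per cell with a line at the class median. Mgst1 was listed at 0 in all 6 type 1-like cells, Sftpc was listed at 0 in 4 of 8 type 2-like cells, and Sec14l3 was at 636 FPKM or more in every type 1-like cell while 1 myeloid cell and no cell with neither marker set detected it.

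Caveolae are membrane pits coated by caveolins and cavins. All 4 caveolar genes that passed, of 6 with values, were higher in type 1-like cells (median -5.00), against 17.8% of all genes tested. Cav1 itself had no values. Sdpr, the cavin also known as Cavin2, was at 124 to 1799 FPKM (median 218) in type 1-like and at most 23.9 FPKM in type 2-like cells, without overlap (-7.29). Ptrf, or Cavin1, was at 16.9 to 577 FPKM (median 196) and overlapped through cell 1, which had 371 FPKM (-5.27). Cav2 was detected in 5 of 6 type 1-like and 1 of 8 type 2-like cells (-4.73).

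Basement membrane genes followed, with 10 of 11 that passed (19 with values) higher in type 1-like cells and 0 in type 2-like cells (median -3.71). The shares over all genes tested were 17.8% and 6.82%. Col4a3 (chromosome 1, 82586921 to 82722059), a chain of the type IV collagen of alveolar and glomerular membranes, was at 122 to 1955 FPKM (median 740) in type 1-like cells and at most 3.89 FPKM in type 2-like cells, without overlap (-8.41). It was detected in 1 of 10 myeloid cells, 1 of 6 cells with neither set and 12 of 50 lineage+ cells. Col4a2 was at 7.13 to 305 FPKM (median 58.7) against 0 to 11.9 FPKM (-4.88). Lama3, a laminin chain of epithelia, was at 4.13 to 74.6 FPKM (median 45.1) against 0 to 57.9 FPKM, that maximum in cell 7 (-4.13). Agrn, a proteoglycan, reached 1 FPKM in 5 of 6 type 1-like and 0 of 8 type 2-like cells (-3.90). Sparc, a matrix protein, was at 787 to 2616 FPKM (median 1721) in type 1-like cells and at 590 and 356 FPKM in type 2-like cells 1 and 23 (-7.75).

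The cytoskeleton, keratin and junction lists leaned to type 1-like cells less evenly, with 5 of 15 (median -1.78) and 6 of 12 genes (median -1.91) higher there and 1 each, Ezr and Cldn3, higher in type 2-like cells. Over all genes tested 17.8% were higher in type 1-like cells, with a median of -0.39. Myh9, a non-muscle myosin heavy chain, was at 64.7 to 151 FPKM (median 119) in type 1-like and 0 to 41.3 FPKM (median 14.3) in type 2-like cells, without overlap (-3.60). Msn, or moesin, which links actin to the membrane, was at 23.4 to 644 FPKM (median 144) against a median of 0.411 FPKM (-5.51), whereas its relative Ezr was higher in type 2-like cells. Krt7 (chromosome 15, 101412403 to 101427806), a keratin of simple epithelia, was at 94.0 to 1516 FPKM (median 332) against at most 3.81 FPKM, without overlap (-7.86), and Krt19 was detected in 5 of 6 and 2 of 8 cells (-5.45). Krt8 did not differ by the limit used (0.50). Vcl (-2.78) and Tln1 (-3.22), which anchor actin at adhesions, were detected in 5 of 6 type 1-like cells each, and in 3 and 1 of 8 type 2-like cells. None of 4 targets of the mechanosensitive factor YAP that passed reached the limit in either direction (median -0.98).

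Ion transport genes split by type. All 3 subunits of the epithelial sodium channel, Scnn1a, Scnn1b and Scnn1g, were higher in type 1-like cells. Scnn1g ranged from 0.385 to 1178 FPKM (median 133) there and 1 type 2-like cell, cell 23, detected it (-4.56), while Scnn1b was listed at 0 in all type 2-like cells and at 1 FPKM or more in 5 of 6 type 1-like cells. Clic3, a chloride channel family member, was at 2003 to 4798 FPKM (median 3094) in type 1-like cells, with 3245 FPKM in cell 23 and 480 FPKM in cell 1 (-7.86). Atp1b1, the beta subunit of the sodium pump, was higher in type 2-like cells, at 3.89 to 2083 FPKM (median 70.6), with 71.3 FPKM in type 1-like cell 2 and at most 0.0628 FPKM in the other 5 (5.19). Over the 10 genes that passed, 4 were higher in type 1-like and 1 in type 2-like cells (median -0.94). Among all genes tested 17.8% and 6.82% were.

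Growth factor signalling genes were called in both directions. Of 13 genes that passed (27 with values), Pdgfa, Pdgfb, Tgfb2, Hbegf and Bmp4, all ligands, were higher in type 1-like cells, and the receptors Fgfr2, Egfr and Met and the Notch ligand Jag1 were higher in type 2-like cells (median over the 13, -1.09). The ligand Shh and the receptors Tgfbr2, Bmpr1a and Notch2 lay between the limits. Of all genes tested, 17.8% were higher in type 1-like and 6.82% in type 2-like cells. Pdgfa, a ligand for fibroblasts, was at 1.59 to 356 FPKM (median 20.4) in type 1-like and at most 0.459 FPKM in type 2-like cells, without overlap (-4.47). Tgfb2 was at 1.51 to 304 FPKM (median 2.88) against at most 0.00291 FPKM, without overlap (-3.39), and most of its values were low. Hbegf, a ligand of Egfr, was detected in 4 of 6 and 1 of 8 cells (-3.55). Fgfr2, the receptor of the epithelial FGF signal, was detected in 6 of 8 type 2-like cells (median 8.27 FPKM, highest 516 FPKM in cell 1) and listed at 0 in all type 1-like cells. Met, the receptor of hepatocyte growth factor, was at 0.824 to 118 FPKM (median 4.40) in type 2-like cells and listed at 0 in all type 1-like cells.

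Of 15 lung transcription factors that passed, 2 were higher in type 2-like cells and 1 in type 1-like cells (median 0.67). Of all genes tested, 6.82% and 17.8% were (median -0.39), so few calls are no trait of this list. Nkx2-1 had no values. Elf3 and Ehf, ETS factors of epithelia, were each detected in 4 of 8 type 2-like cells, with medians of 16.8 and 4.13 FPKM, and in no type 1-like cell. The difference of Ehf, 2.43, was 1.83 without cell 7. Id3, an inhibitor of helix-loop-helix factors, was detected in 4 of 6 type 1-like cells, up to 1453 FPKM, and was at most 7.42 FPKM in type 2-like cells (-3.40). Foxa1, Foxa2, Cebpa and Gata6 lay between the limits.

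Immediate early genes, which are also known to respond to tissue dissociation, were mostly higher in type 2-like cells. Of 16 that passed, 9 were higher in type 2-like and 1 in type 1-like cells (median 2.39). Among all genes tested 6.82% and 17.8% were. Fos was at 0.593 to 969 FPKM (median 150) in type 2-like cells, at 361 FPKM in type 1-like cell 2 and at most 0.0605 FPKM in the other 5 (5.36). Zfp36, which destabilises mRNA, did likewise, with a median of 128 FPKM, 161 FPKM in cell 2 and at most 0.0756 FPKM in the others (4.79). Egr1 had a median of 98.9 FPKM in type 2-like cells and at most 0.863 FPKM in type 1-like cells (5.10). Ier3 was the exception, at 1.84 to 2091 FPKM (median 694) in type 1-like cells and detected in 2 of 8 type 2-like cells (-6.49). Fos was also detected in 10 of 10 myeloid cells and 49 of 50 lineage+ cells. In the heat shock list 1 of 11 genes was higher in type 1-like cells, against 17.8% of all genes tested. It was Hspa5, a chaperone of the endoplasmic reticulum (-3.00), and no other member passed the limit.

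Ribosomal protein and respiratory chain genes leaned in opposite directions. Of 29 ribosomal protein genes 16 were higher in type 2-like cells (median 2.11). Of 28 respiratory chain genes 1, Ndufa1, was higher in type 2-like and 10 in type 1-like cells (median -1.64). The shares over all genes tested were 6.82% in type 2-like and 17.8% in type 1-like cells. Rplp0 had a median of 343 FPKM in type 2-like cells and 5.01 FPKM in type 1-like cells, with 402 FPKM in cell 2 (3.71). Rps27a, with 260 FPKM against 0.166 FPKM, also stood high in cell 2 (1250 FPKM, 4.20). Such short genes have processed copies with which they may share reads. Uqcrh, a subunit of complex III, was at 64.8 to 1103 FPKM (median 366) in type 1-like cells against a median of 0.725 FPKM (-5.58), and Atp5h, of the ATP synthase, was detected in 5 of 6 against 2 of 8 cells (-6.94). Taken as a ratio of mean FPKM, the ribosomal median was 0.48.

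**Figure D4:**
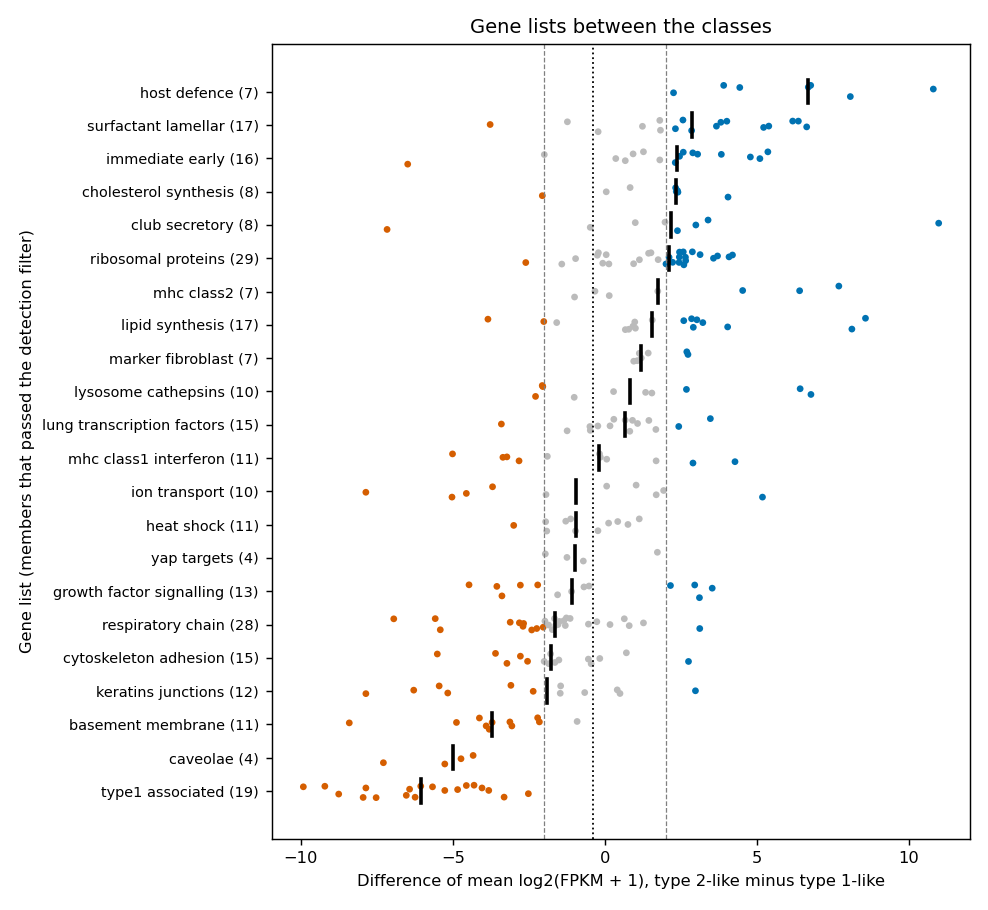
Difference of mean log2(FPKM + 1), type 2-like minus type 1-like (x axis), of each gene of 22 lists (rows, with the number of genes that passed the detection limit), 1 point per gene: blue at 2 or more, orange at -2 or less, grey between; black bars are list medians and the dotted line is the median over all genes tested, -0.39. Host defence (6.69) and surfactant and lamellar body genes (2.86) lie furthest to the right, and type 1-associated genes (-6.06) and caveolae (-5.00) furthest to the left.

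Airway genes were split between the classes. Of 8 club cell secretory genes that passed, 4 were higher in type 2-like cells and 1 in type 1-like cells (median 2.18). Among all genes tested 6.82% and 17.8% were. Scgb1a1, the club cell secretoglobin, was at 0 to 114599 FPKM (median 911) in type 2-like and 0 to 1765 FPKM (median 260) in type 1-like cells (2.39), with the highest value in the shallow cell 34. Without cells 17 and 34 the difference was 0.70, with 1 cell left out it ranged from 1.17 to 3.60, and it changed sign under 3 other settings. It was detected in 10 of 10 myeloid and 6 of 6 cells with neither set, so it was present in every class. Cyp2f2 was above 200 FPKM in cell 23 alone of the members (3.40, and 2.02 without it). Sec14l3 (chromosome 11, 4064853 to 4078990), a lipid transfer protein of airway cells, was at 636 to 4883 FPKM (median 1371) in type 1-like cells and at 0.0526 to 303 FPKM (median 4.21) in type 2-like cells, without overlap (-7.16). Tppp3, on the ciliated list, was detected in 5 of 6 type 1-like and 3 of 8 type 2-like cells (-4.95), and 5 of the 8 ciliated markers, among them Foxj1, were listed at 0 in all members.

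Immune markers beyond cell 2 were Cd52 at 122 FPKM and Csf1r at 14.0 FPKM in type 1-like cell 28, Csf1r at 22.9 FPKM in type 1-like cell 31, and Fcer1g at 12.2 FPKM and Cd53 at 4.28 FPKM in type 2-like cell 34. Of the lists with values, 6 of 6 mesothelial, 6 of 6 basal and neuroendocrine and 5 of 5 erythroid markers were listed at 0 in all 14 members, and 12 of 12 endothelial and 6 of 6 smooth muscle markers were under 1 FPKM in each of them. Of 12 immune markers 3 were listed at 0 throughout, and the macrophage list reached 1 FPKM in cells 1, 17 and 34 only, by 1 gene each. Over the whole profile, Pearson r of log2(FPKM + 1) had a median of 0.368 over the 28 pairs of type 2-like cells, 0.396 over the 15 pairs of type 1-like cells and 0.307 over the 48 pairs between classes. The genes of the rule are in this profile and part the classes by construction. These pairs also share cells and a preparation, and r is given as a description.

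The mixed cells were of more than 1 kind. Cell 21, with an estimated 13200000 reads, had 14 of the 15 leading type 2-like and 14 of the 15 leading type 1-like genes at 1 FPKM or more, with mean log2 levels of 7.72 and 8.61. Cell 8 had 13 and 9 of them (means 9.28 and 3.05), with Lyz2 at 43371 FPKM, the highest of all kept lineage- cells. Cells 13 and 35, with an estimated 1240000 and 284000 reads, had 5 type 2-like genes each and 12 and 13 type 1-like genes, at means of 1.68 and 0.86 against 5.57 and 3.93. Both also had high Scgb1a1, at 100140 and 196038 FPKM, while the highest value in the kept cells other than these and cell 34 was 4426 FPKM. No type 1-like cell had more than 6 of the leading type 2-like genes, while type 2-like cells had 1 to 9 of the type 1-like genes, with 9 in cell 23 and 8 in cell 1. Wells were inspected for doublets by the submitters, and whether cell 21 held more than 1 cell was not tested.

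**Figure D5:**
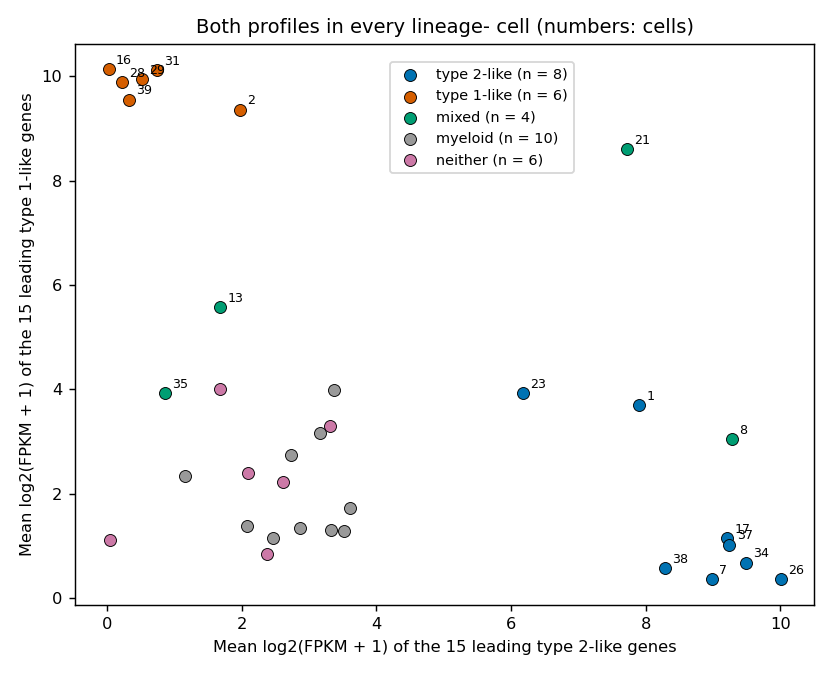
Mean log2(FPKM + 1) of the 15 leading type 2-like genes (x axis) against that of the 15 leading type 1-like genes (y axis) in each of the 34 kept lineage- cells, with cell numbers for the type 2-like, type 1-like and mixed cells. These genes were picked on the 14 members, so the distance between the 2 classes is a matter of the choice; mixed cell 21 lies high on both axes (7.72 and 8.61), and type 2-like cells 23 and 1 lie above their class on the y axis.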

How the data were processed

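Cells were caught on a Fluidigm C1 chip, amplified with SMARTer, tagged with Nextera XT and read on a NextSeq as single ends, and wells were inspected for doublets and debris, per the labels' protocols; no doublet caller was run. Bowtie 1.1.1, RSEM 1.2.20 and, as builds, GRCm38 with mm9 are listed in the submitters' processing notes without their roles, and 99.3% of the rows matched by symbol overlap their RefSeq GRCm38 locus. The values deposited by the authors are taken as FPKM, although no label or file header names the unit. They have no counts, and depth was estimated from the step that 1 read makes in single-transcript genes. The estimate was within 2-fold in 42 of 42 simulations, which drew the same lineage+ profiles at several depths. The simulations used the gene lengths and single reads that the estimate assumes, so they cannot test it on the deposited values.

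Of 23846 rows, 1830 without values and 726 of 244 repeated symbols were left out, leaving 21290 genes. Classes were compared by the mean of log2(FPKM + 1), which understates differences of low genes, with Python 3.11.15, numpy 2.4.6, pandas 2.3.3 and scipy 1.17.1. A gene was detected in a cell at 1 FPKM, tested if detected in 25% of either class, and called at a difference of 2. With 1 sample and cells as no replicates, the classes were compared without a test; single cells that stand apart within a class were picked by Dixon's criterion, which treats cells as samples. For detection in lineage+ cells, 50 profiles were used, 2 near-identical pairs having been averaged. Lineage+ and lineage- cells were listed separately under column names with different prefixes. Lineage therefore cannot be told apart from any difference in animal or preparation between them.

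The members and lists were chosen with earlier results of these data known. Genes named in full were the 15 largest differences each way, detected in 50% of the higher class, up to 4 per list, and a few fixed names, among them Sftpc, Lyz2, Scgb1a1 and Epcam; Emp2, Icam1, B2m, Krt8, Ezr, Scnn1a, Abca1 and Met were named after their values were seen. Cxcl15 is listed as Il8 at its RefSeq locus and was matched so after the classes by listed symbol had been seen; with symbols alone, cell 35 was type 1-like too (7 cells). A few genes of the lists are not reported here by name. Alternatives were other marker limits, cell and gene filters, pseudocounts of 0.1 and 10, a ratio of means, scaling, and each member left out in turn.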

Additional observations from a re-analysis of the deposited data

Results flagged for a closer look

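Among 146 sets of a named gene in 1 class of cells (those with a class mean of log2(FPKM + 1) of at least 1), 32 had a highest or lowest cell apart from the others by Dixon's 95% value. That value assumes normal spread, which levels with many zeros do not have, so the count cannot be set against a chance rate. These flags treat cells as samples. Most fell on 3 cells.

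Type 2-like cell 23 was low where its class was high, with Lyz2 at 0.353 FPKM (others 511 or more), Scd1 at 23.8 FPKM (others 1157 or more) and Fabp5, Lyz1, Hc and H2-Aa at 0. It was high for the type 1-like genes Prdx6, at 6926 FPKM, and Cyp2b10, at 389 FPKM.

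Type 1-like cell 2 had Cd74 at 4491 FPKM, H2-Aa at 1574 FPKM, H2-Ab1 at 2391 FPKM, Fos at 361 FPKM, Zfp36 at 161 FPKM, Atp1b1 at 71.3 FPKM and Scd1 at 36.8 FPKM, with the other 5 cells of its class at most at 1.93 FPKM for Scd1 and lower for the rest.

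Type 2-like cell 1 had S100a6 at 590 FPKM, Pmp22 at 298 FPKM, Pxdc1 at 151 FPKM, Ptrf at 371 FPKM and Ctsd at 118 FPKM.

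Single values set other cells apart. In type 2-like cells these were Gprc5a at 127 FPKM in cell 37, Tln1 at 93.8 FPKM in cell 38, F11r at 534 FPKM in cell 17 and Rps27a at 0 in cell 17. In type 1-like cells they were Pxdc1 at 306 FPKM in cell 29, Sdpr at 1799 FPKM in cell 16, F11r at 0 in cell 16, Ptrf at 16.9 FPKM and Atp5h at 0 in cell 28, Vcl at 0.104 FPKM and Ctsb at 30.3 FPKM in cell 31, and Epcam at 184 FPKM in cell 39.

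Among the cells left out for having under 1000 genes, cell 22 (589 genes) had 8 type 2 markers at 1 FPKM or more, against at most 1 in any lineage+ cell. Cell 33 (752 genes) had 5 type 1 markers, against at most 2 in any lineage+ cell.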

How the results depend on the processing

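Limits come first from numbers: 8 and 6 cells of 1 sample, without animal or chip labels. Differences against a listed 0 or a trace depend on the pseudocount. The classes rest on the genes' own values, and the spread used to judge movement and the depth estimate were chosen after seeing the data. No paired analysis was possible because both classes are cells of 1 sample, compared without a test, and no label pairs them. Over 31 alternatives, 18 of 22 list medians kept their sign, and ion transport, lysosome, class I and interferon, and YAP target genes did not. Of 90 named genes past the limit, 59 stayed past it in every alternative. The causes of the moves below were not tested.

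Counts of genes higher in type 2-like cells, 277 as reported, were 605 with 3 markers needed, 595 with 1500 genes per cell (each with 4 type 2-like cells left), 437 with at least 2000000 reads, 916 as a ratio of means, and 652 and 73 with pseudocounts of 0.1 and 10. Counts higher in type 1-like cells, 724 as reported, were 427 with 5 markers needed, 408 with markers at 10 FPKM, 384 with mixed cells assigned, 1265 as a ratio of means, and 1339 and 192 with the 2 pseudocounts. The share of calls higher in type 2-like cells, 27.7% as reported, was 47.2% with 3 markers, 43.4% with 5, 42.0% at 10 FPKM and as a ratio, 42.8% with 1500 genes, 40.8% with mixed cells assigned and 37.1% with listed symbols alone (311 and 527 genes). The median over all genes, -0.39, was 0.36 with 3 markers, 0.37 with 1500 genes and -0.02 without cell 2.

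List medians moved as follows. With 3 markers, surfactant genes were at 4.27, ion transport at -0.14 and class I and interferon at 1.40; with 1500 genes, at 4.26, -0.24 and 1.55. Basement membrane was at -2.99 with 5 markers and -3.08 at 10 FPKM. Without a gene filter on cells, lipid synthesis was at 2.50 and class II at 5.88. With myeloid cells kept, type 1-associated genes were at -5.20, basement membrane at -2.73 and host defence at 4.92. With mixed cells assigned, lipid synthesis was at 2.66, type 1-associated at -5.13, basement membrane at -3.03 and class II at 5.54. At 2000000 reads keratins and junctions were at -1.06. As a ratio of means, surfactant was at 5.97, lipid 2.80, cholesterol 5.60, type 1-associated -5.21, caveolae -6.31, basement membrane -3.15, transcription factors 1.51, ion transport 0.76, club cell genes 4.42 and fibroblast markers 4.93. With a pseudocount of 0.1, surfactant was at 4.30, lipid 3.26, type 1-associated -7.60, caveolae -6.97, basement membrane -5.68, cytoskeleton -2.80, keratins -3.01, YAP targets -2.38, ion transport -1.63 and growth factors -1.97. With 10, surfactant was at 1.95, lipid 0.50, type 1-associated -3.93, caveolae -2.85, basement membrane -1.65, cytoskeleton -0.75, keratins -1.00, host defence 4.31 and immediate early genes 1.06. Detection in 50% of cells gave surfactant 3.82, lipid 2.91, ion transport -2.82 and class II 6.41, and no detection filter gave basement membrane -2.15, ion transport -0.0061, host defence 1.32 and growth factors -0.011. Without cells 1, 2 and 23, a setting added after seeing the data, keratins were at -2.99, class II at 7.01, lysosome at 2.40 and growth factors at -2.03. Leaving out each cell in turn, surfactant ranged from 2.50 to 3.79, lipid from 1.25 to 2.63, transcription factors from 0.027 to 0.94, basement membrane from -3.83 to -3.01, class II from 1.56 to 4.31 and lysosome from -0.21 to 1.87.

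Scgb1a1 reversed to -0.36 with 5 markers, -0.12 at 10 FPKM and -0.088 with mixed cells assigned, and H2-Ab1 to -0.42 as a ratio of means.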
